A study of Mus musculus with 15 samples.

Results

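The 12 mice given an estrogen receptor ligand were compared with the 3 mice given vehicle (Veh), gene by gene and as the mean of their 4 groups minus Veh, to find hepatic RNA changes common to all ligands. The ligand mice were the 3 sequenced mice in each of 4 groups. They were assigned to estradiol (E2) at 5 µg/kg, conjugated estrogens (CE) at 2.5 mg/kg, bazedoxifene (BZA) at 3 mg/kg or CE with BZA (CE+BZA). All are stated doses per day. The study's methods also name slow-release pellets for E2 without relating them to the stated dose, so the amount of E2 that the mice received is uncertain. For CE the methods name an osmotic minipump, and for BZA and Veh they do not spell out the route. Ligand and delivery therefore cannot be told apart between E2 and CE. All 15 mice of the series entered the comparison, as did all 2545 genes of the deposited table. All were female C57BL/6 mice (C57BL/6J in the study's methods), ovariectomized at 10 weeks of age, kept from 8 weeks of age on a high-fat diet with 45% of calories from fat, and treated for 6 weeks. The Veh mice therefore share the surgery and the diet with the ligand mice, and mice with intact ovaries were not analysed here. Each value is from the liver RNA of a single mouse. Per the study's methods the treatment groups were larger, and 3 liver RNA samples of each were selected without a stated rule.

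Estrogens act in the liver mainly through estrogen receptor alpha, a ligand-activated transcription factor that binds DNA directly or through other factors. E2 is the main ovarian estrogen, and CE is a mixture of sulfated estrogens used in menopausal therapy. BZA is a selective estrogen receptor modulator, which activates the receptor in some tissues and blocks it in others. Loss of ovarian estrogen in rodents is known to raise hepatic fat storage, and the female pattern of hepatic cytochromes P450 and sulfotransferases depends on sex steroids and on growth hormone.

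Values are log2 normalized expression relative to the median of the gene over the 15 mice, so that a difference of 1 is a 2-fold change and levels cannot be compared between genes. All 2545 genes had a group mean more than 1 away from Veh in at least 1 ligand group. The table is therefore a selection made on differences from Veh, and the shares of genes given below describe that selection and not the liver transcriptome. The p-values and FDR values apply within this selection too. Because the genes were selected on the differences that are tested, an FDR under 0.05 is not a false discovery rate of that size, in the tests against Veh above all. A floor below which levels have no order was shared by 2 or more mice in 1045 genes (41.1%). Read totals are not in the table, so the depth behind a value is unknown. Hepatocyte identity could not be checked by level, because the values are relative and only 5 of the hepatocyte marker genes were listed. The 31 markers searched for pancreatic acinar cells had 23 members in the table, whose mean value was 5.25 in BZA mouse 3 and -0.12 to 0.67 in the other 14 mice. The mean over 12 adipocyte markers was 3.31 in the same mouse and -0.40 to 0.57 elsewhere, and that over 13 neutrophil markers was 5.40 in CE mouse 3 and -0.99 to 1.08 elsewhere. In these markers the libraries of BZA mouse 3 and CE mouse 3 stood apart, and the main counts are given with and without them. Over all genes, the mean root-mean-square difference from the other mice of the group was 1.48 and 1.41 in them. It was also 1.47 in BZA mouse 1 and 1.48 in BZA mouse 4, and 1.11 to 1.27 in the other mice.

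Under all ligands together, 6 genes passed at an FDR under 0.05 and a log2 difference beyond 1 (limma with Benjamini-Hochberg adjustment over the 2545 genes), which is 0.236% of the table. Enho was up-regulated (0.0393% of the table), and Mogat1, Gsta1, Aqp4, Pla2g4f and Cfd were down-regulated (0.196%). At an unadjusted p under 0.05 with the same fold, 168 genes were higher (6.6%) and 199 lower (7.82%), or 367 in all (14.4%). All 12 ligand mice lay above all 3 Veh mice in 32 genes (1.26%) and below them in 59 (2.32%), or 91 in all (3.58%). In 12 of those 32 genes (0.472% of the table) and 19 of those 59 (0.747%), each ligand group also differed from Veh by more than 1. These 31 genes (1.22%) are called common genes below, and they include 4 of the 6 that passed. Without BZA mouse 3 and CE mouse 3, 1 gene passed as higher and 7 as lower, and the same 6 genes were among them.

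The calls depended on the model and on the mice. With the ligand mice fitted as a single group, so that differences between ligands count as spread, only Mogat1 passed. In limma 0 genes were higher and 0 lower without the CE group (172 and 192 at an unadjusted p under 0.05 with the same fold), 0 and 2 without the E2 group, 1 and 2 without CE+BZA and 6 and 14 without BZA. Without Veh mouse 1 or without Veh mouse 4, 0 genes passed in limma, although 183 and 246 were higher and 202 and 192 lower at an unadjusted p under 0.05 with the same fold, and without Veh mouse 7 only Pla2g4f passed. The sizes of the differences held, as Mogat1 fell by 2.37 to 2.51 and Enho rose by 2.16 to 2.92 in those fits. When each ligand mouse was left out in turn, Mogat1, Gsta1, Pla2g4f and Enho passed every time, Aqp4 in 4 of 12 fits and Cfd in 4 of 12. The counts were 5 higher and 11 lower without BZA mouse 1, and 3 and 8 without BZA mouse 3.

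**Figure D1:**
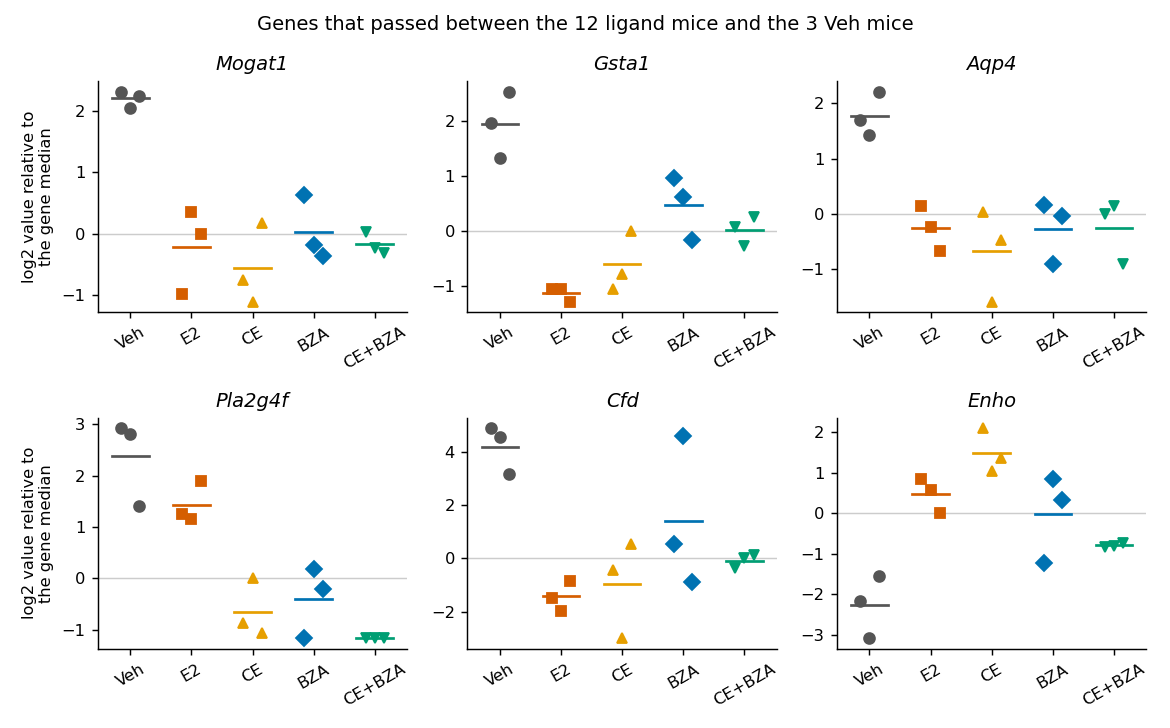
Log2 values relative to the median of the gene (vertical axes) in each mouse of the 5 groups (horizontal axes) for the 6 genes that passed, with a point for each mouse and a line at the group mean. In Mogat1, Gsta1, Aqp4 and Enho all 12 ligand mice lie beyond the 3 Veh mice, while an E2 mouse in Pla2g4f and BZA mouse 3 in Cfd overlap with Veh.

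Mogat1, a gene of lipid storage, had the smallest p of the comparison. It encodes a monoacylglycerol acyltransferase that makes diacylglycerol, a precursor of triglyceride, and lies on chromosome 1 of GRCm38 (chr1:78510991-78538173, plus strand). Its values in Veh were 2.31, 2.04 and 2.25. In the ligand mice the lowest, median and highest values were -1.11, -0.21 and 0.62. The highest ligand mouse was thus below the lowest Veh mouse. Mogat1 fell by 2.43 ± 0.40 (SE) on the log2 scale, a 5.39-fold decrease (FDR = 0.0170 by limma), and an exact permutation test over the 455 splits of the mice gave p = 0.0044, the smallest they can give. Any gene whose ligand and Veh mice do not overlap gives this p, here and below, so it adds nothing to the lack of overlap. E2 differed from Veh by -2.41, CE by -2.76, BZA by -2.18 and CE+BZA by -2.37. These values did not differ among the ligands beyond the spread between mice (limma F test, FDR = 0.811).

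Of the 41 genes listed for lipid droplets and triglyceride storage, 14 were in the table, and Mogat1 was the member that passed. With ligands, 8 of the 14 were lower and 6 higher, with a median difference of -0.94 against 0.29 over all genes. Over all 2545 genes, 1149 were lower and 1396 higher, which is the split to set beside those of the lists below. At the unadjusted threshold 6 members were lower and 1 was higher, against 7.82% and 6.6% of the table. All 12 ligand mice lay below all Veh mice in 4 of the 14, against 2.32% of the table. Cd36 encodes a fatty acid translocase. Its Veh values of 1.06, 0.55 and 1.65 lay above all ligand mice, whose values ran from -0.77 to 0.49 with a median of -0.01. Cd36 differed by -1.19 ± 0.36 (limma FDR = 0.156, exact permutation p = 0.0044). Pparg encodes a nuclear receptor that drives fat storage genes, and had Veh values of 0.77, 0.61 and 1.18. The ligand mice lay lower, between -0.70 and 0.25 with a median of -0.06. Pparg differed by -1.03 ± 0.35 (limma FDR = 0.187, exact permutation p = 0.0044). The E2 group was at -1.30 from Veh, CE at -0.80, BZA at -0.99 and CE+BZA at -1.03. Fitm1, a protein of lipid droplet formation, had a difference of -1.09 with no overlap either. Lpin1, a phosphatidate phosphatase and transcriptional coactivator, differed in the other direction by 1.63 ± 0.51 (limma FDR = 0.167), and 11 of 12 ligand mice were above all Veh mice. Neither Cd36, Pparg, Fitm1 nor Lpin1 passed the adjusted test.

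The start regions of 5 genes are shown to set the 4 lipid storage genes whose ligand and Veh mice did not overlap beside Gsta1, the down-regulated enzyme of detoxification described below. They are RefSeq promoter windows of GRCm38.p6, from 250 bases before to 50 bases after the start and written along the gene. Only the first listed window of each gene was used, so other starts were not searched. The window of Cd36 lies inside the gene, which reaches chr5:17888801. Capitals mark AGGTCA or its reverse complement TGACCT, the core to which estrogen receptors and the PPAR family bind.
Mogat1, chr1:78510810-78511109, plus strand: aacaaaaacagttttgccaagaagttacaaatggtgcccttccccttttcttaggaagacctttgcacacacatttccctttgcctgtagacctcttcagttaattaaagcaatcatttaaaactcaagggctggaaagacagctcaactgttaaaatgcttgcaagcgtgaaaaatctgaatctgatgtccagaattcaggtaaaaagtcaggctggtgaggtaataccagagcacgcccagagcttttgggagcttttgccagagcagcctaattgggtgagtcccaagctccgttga
Gsta1, chr9:78230419-78230718, plus strand: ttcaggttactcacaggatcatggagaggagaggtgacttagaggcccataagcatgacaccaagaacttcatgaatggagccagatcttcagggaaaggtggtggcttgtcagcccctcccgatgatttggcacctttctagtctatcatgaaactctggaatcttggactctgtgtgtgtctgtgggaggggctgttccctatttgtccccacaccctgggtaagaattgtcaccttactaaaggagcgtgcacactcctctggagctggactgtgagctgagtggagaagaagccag
Cd36, chr5:17835847-17836146, minus strand: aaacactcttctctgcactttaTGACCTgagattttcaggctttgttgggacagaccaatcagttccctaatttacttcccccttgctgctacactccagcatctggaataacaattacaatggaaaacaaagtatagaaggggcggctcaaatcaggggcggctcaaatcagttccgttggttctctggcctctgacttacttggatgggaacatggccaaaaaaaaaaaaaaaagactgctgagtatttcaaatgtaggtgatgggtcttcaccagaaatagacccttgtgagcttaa
Pparg, chr6:115360894-115361193, plus strand: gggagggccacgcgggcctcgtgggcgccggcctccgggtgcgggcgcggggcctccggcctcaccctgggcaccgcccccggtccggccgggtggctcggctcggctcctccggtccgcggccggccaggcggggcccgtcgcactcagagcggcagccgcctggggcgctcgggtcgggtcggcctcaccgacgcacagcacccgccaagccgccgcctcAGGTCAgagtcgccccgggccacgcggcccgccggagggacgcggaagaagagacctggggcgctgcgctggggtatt
Fitm1, chr14:55575424-55575723, plus strand: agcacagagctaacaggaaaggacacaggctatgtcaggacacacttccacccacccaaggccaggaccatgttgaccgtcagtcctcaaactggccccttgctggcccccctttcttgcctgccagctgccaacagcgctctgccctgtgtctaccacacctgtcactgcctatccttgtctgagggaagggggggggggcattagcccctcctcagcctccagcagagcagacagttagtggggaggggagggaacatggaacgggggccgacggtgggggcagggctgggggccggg
Cd36 and Pparg each held the core once, and Mogat1, Fitm1 and Gsta1 did not hold it in these 300 bases. The core occurred on either strand in 16.8% of the 1413 genes of the table with a window and in 16.0% of all 27025 windows. It was in 5 of 20 windows (25%) of the genes with all ligand mice higher and in 6 of 41 (14.6%) of those with all ligand mice lower. The full estrogen response element, searched on both strands as GGTCA, any 3 bases and TGACC, was in 0.0666% of all windows and in 0 of the 1413. It can overlap with the core. A match or its absence describes the letters of these windows and not binding by the receptor.

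Genes of fatty acid oxidation and targets of PPAR-alpha, the nuclear receptor of fasting and fat breakdown, were mostly lower with ligands, and none passed the adjusted test. Of the 50 genes listed, 18 were in the table, with 16 lower and 2 higher and a median difference of -0.84. Under quantile normalization and under centring of each mouse, 17 were lower and 1 was higher. As many as 7 were lower at the unadjusted threshold (7.82% of the table), and 6 had all 12 ligand mice below all Veh mice (2.32% of the table). Cyp4a10, Cyp4a31 and Cyp4a32 among those 6 encode fatty acid omega-hydroxylases. Their near-identical sequences can share reads, so they do not count as separate observations. Cyp4a10 had Veh values of 1.43, 0.45 and 1.53 against -1.62 to 0.24 in the ligand mice with a median of -0.05, and differed by -1.44 (limma FDR = 0.131). Cyp4a32 and Cyp4a31 differed by -1.30 and -1.22. Ehhadh, an enzyme of peroxisomal beta-oxidation, differed by -1.07, Vnn1, a pantetheinase, by -1.10 and Acsm3, a medium-chain acyl-CoA synthetase, by -0.94. Hao2, a peroxisomal hydroxyacid oxidase, had the largest difference of the list, -3.32 ± 0.93 (limma FDR = 0.130), but an E2 mouse at 1.59 overlapped with the Veh mice at 1.73, 1.44 and 2.36. It differed from Veh by -1.20 in E2 and by -5.07 in CE+BZA (limma F test among ligands, FDR = 0.317). Fatty acid and cholesterol synthesis had 8 of 46 genes in the table, 6 of them higher, with Fasn, the fatty acid synthase, at 0.41 and Acly, which makes cytosolic acetyl-CoA, at 0.47. Elovl3, a fatty acid elongase, was the member lower at the unadjusted threshold, at -1.21.

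**Figure D2:**
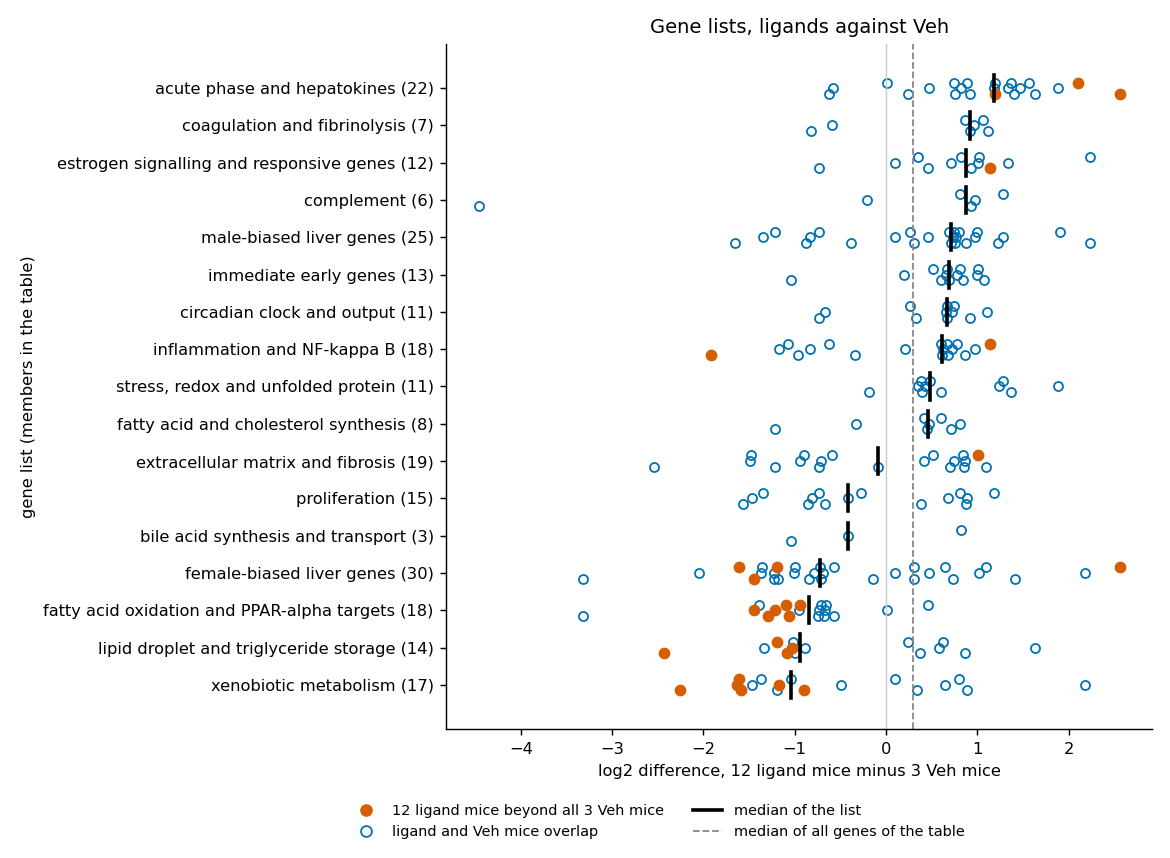
Log2 difference of the 12 ligand mice minus the 3 Veh mice (horizontal axis) for the members of each of 17 gene lists found in the table (vertical axis), with filled points where ligand and Veh mice do not overlap, a bar at the median of each list and a dashed line at 0.29, the median of all genes. Lipid storage, fatty acid oxidation and xenobiotic metabolism have medians of -0.94, -0.84 and -1.04, and acute phase genes and hepatokines a median of 1.18.

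Enzymes of xenobiotic metabolism included Gsta1, a glutathione S-transferase of the alpha class (chr9:78230656-78242684, plus strand). Its Veh values were 1.96, 1.33 and 2.53, above the ligand range of -1.29 to 0.96 with a median of -0.22. Gsta1 fell by 2.26 ± 0.39, or 4.79-fold (limma FDR = 0.0180, exact permutation p = 0.0044). E2 was at -3.08 from Veh, CE at -2.56, BZA at -1.47 and CE+BZA at -1.93 (limma F test among ligands, FDR = 0.317). Gsta2, its near-identical neighbour, differed by -1.47, and reads of the pair may be split between them. Of 71 genes listed, 17 were in the table, with 11 lower and 6 higher and a median difference of -1.04. At the unadjusted threshold 8 were lower (7.82% of the table), and 6 were below all Veh mice in all ligand mice (2.32% of the table). Cyp2c55 is a cytochrome P450 of arachidonic acid and xenobiotic metabolism. It had Veh values of 1.33, 1.26 and 1.67 and ligand values of -1.84 to 0.53 with a median of -0.03, and differed by -1.63 (limma FDR = 0.102). Cyp3a59 differed by -1.58, Cyp2b13 by -1.61, Aldh1a1, which makes retinoic acid, by -1.17 and Cyp3a11, the main murine counterpart of human CYP3A4, by -0.90, all without overlap. Cyp3a44 stood against them at 2.17 (limma FDR = 0.0906). It was 4.90 above Veh in E2 and 2.60 in CE, but 0.68 in BZA and 0.51 in CE+BZA, and so is not a change common to all ligands (limma F test, FDR = 0.0118).

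Genes known to be higher in female than in male liver were divided. Of 30 in the table, 19 were lower and 11 higher with ligands (median -0.72), whereas 18 of 25 genes known to be higher in males were higher (median 0.72). Among the female-biased genes 10 were lower and 3 higher at the unadjusted threshold, against 7.82% and 6.6% of the table, and 1, Enho, passed. Sult2a5, a hydroxysteroid sulfotransferase, differed by -1.22 (limma FDR = 0.131), with 11 of 12 ligand mice below all Veh mice. Sult2a1, Sult2a2, Sult2a3, Sult2a4 and Sult2a5 all had negative differences, between -0.69 and -2.05, and near-identical sequence. Egfr, the epidermal growth factor receptor, counted here as male-biased, had Veh values of -1.99, -1.31 and -1.65 against -1.32 to 1.69 in the ligand mice with a median of 0.21. It differed by 1.90 ± 0.49 (limma FDR = 0.106, exact permutation p = 0.00879).

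Secreted factors of the liver were mostly higher with ligands. Enho encodes adropin, a secreted peptide of energy balance, and lies on chromosome 4 (chr4:41638144-41640324, minus strand). In Veh its values were -2.18, -3.09 and -1.56, and in the ligand mice the lowest, median and highest were -1.23, 0.46 and 2.10. No ligand mouse overlapped with Veh. Enho was up-regulated by 2.57 ± 0.46, or 5.92-fold (limma FDR = 0.0205, exact permutation p = 0.0044). E2 mice rose by 2.75, CE mice by 3.77, BZA mice by 2.25 and CE+BZA mice by 1.48, and the inequality among ligands did not pass after adjustment (limma F test, FDR = 0.247). Bmp7, a bone morphogenetic protein, was next by p at 2.10 ± 0.43 (limma FDR = 0.0531), just outside the threshold. Its Veh values of -1.58, -1.48 and -2.42 lay below the ligand range of -0.94 to 1.91 with a median of 0.08. E2 differed by 1.40, CE by 1.74, BZA by 2.29 and CE+BZA by 2.96 (limma F test, FDR = 0.368), so that CE+BZA was the highest group in Bmp7 and the lowest ligand group in Enho.

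Enho and Bmp7 belong to the list of acute phase genes and hepatokines, of which 22 of 44 were in the table. Of these, 20 were higher and 2 lower, with a median of 1.18, and 19 were higher under both other scalings. Over all 2545 genes, 1396 were higher and 1149 lower. At the unadjusted threshold 6 were higher (6.6% of the table), with Enho the member that passed. The table held 5 hepatocyte markers, of which 4 were higher too (median 0.90), and their mean was -1.23 to -0.10 in Veh, lowest in Veh mouse 7, and -0.62 to 0.88 in the ligand mice. The part of hepatocyte RNA in the list was not tested. Itih3, a plasma protein that binds hyaluronan, differed by 1.20 (limma FDR = 0.203), with Veh at -1.07, -0.72 and -0.80 and no ligand mouse below -0.62. Fst, or follistatin, differed by 1.41 and ran from 0.05 in E2 to 2.33 in CE+BZA (limma F test, FDR = 0.241). Mt2, a metallothionein, differed by 1.89 ± 0.95 with overlap. The neutrophil marker list had all 13 members higher with ligands, from 0.27 in Mpo to 3.14 in Prtn3. Its mean was -0.80 to -0.19 in Veh and -0.99 to 5.40 in the ligand mice. Without CE mouse 3 and BZA mouse 3, the acute phase list still had 20 of 22 members higher and a median of 1.0, and the neutrophil list 12 of 13 and a median of 0.60, against 0.15 over all genes.

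Known estrogen-responsive genes and genes of estrogen receptor signalling had 12 of 43 members in the table. Of these, 11 were higher and 1 lower (10 and 2 under quantile normalization), with a median of 0.87, and 0 passed in the adjusted limma test. At the unadjusted threshold 3 were higher (6.6% of the table). With no threshold, 1396 of all 2545 genes were higher. Ptgis, the prostacyclin synthase, had Veh values of -0.70, -0.42 and -1.59, below the ligand range of -0.39 to 1.19 with a median of 0.19, and differed by 1.14 (limma FDR = 0.194, exact permutation p = 0.0044). Tff3, a trefoil peptide, differed by 2.23 and Igfbp1, which binds insulin-like growth factors, by 1.34, both with overlap. In Tff3, 2 Veh mice and 2 ligand mice were at its lowest value. Greb1, a widely used estrogen target in breast cells, differed by 0.34.

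Cfd and Krt23 had the largest decreases among the leading genes. Cfd encodes complement factor D, or adipsin, a serine protease of the alternative complement pathway made mainly by adipocytes (chr10:79890853-79892655, plus strand). Its Veh values were 4.89, 4.55 and 3.15. Among the ligand mice 11 lay between -3.00 and 0.53, and BZA mouse 3 lay at 4.59, within the Veh range. Cfd fell by 4.46 ± 0.85, or 22.1-fold (limma FDR = 0.0359, exact permutation p = 0.0132). The E2 group was at -5.62, CE at -5.16, BZA at -2.78 and CE+BZA at -4.28. Without BZA mouse 3 and CE mouse 3 it fell by 4.93 (FDR = 0.0373). The 11 adipocyte markers in the table other than Cfd had means of -0.14 to 0.12 in Veh, 3.20 in BZA mouse 3 and -0.25 to 0.58 in the other ligand mice. With ligands 9 of the 11 were higher and 2 lower, namely Car3, a carbonic anhydrase, at -1.25 (limma FDR = 0.195) and Aqp7, a glycerol channel, at -0.74 (limma FDR = 0.314). With Cfd included, 9 of the 12 were higher and 3 lower (median 0.43). Without BZA mouse 3 and CE mouse 3, 7 of the 12 were higher and 4 lower (median 0.10). Adipoq, Lep and Plin1, named after their values were seen, were at 0.00, their lowest value, in all 3 Veh mice. In BZA mouse 3 Adipoq, Lep and Plin1 were at 5.52, 4.35 and 5.11. The part of adipocyte RNA in the Cfd values of that mouse was not tested. In these bulk samples, fewer cells of a type and less RNA per cell cannot be told apart. The other complement genes of the table had smaller differences, with C8b at 1.28, C8a at 0.97, C3 at 0.93, C4b at 0.82 and Cr2 at -0.21.

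Krt23 encodes a keratin known to be induced in injured and fatty liver (chr11:99477974-99493137, minus strand). Veh mice had 3.19, 2.53 and 3.70, and ligand mice -1.73 to 2.35 with a median of -0.10. All ligand mice were lower, with BZA mice 1 and 3 nearest to Veh at 2.35 and 1.47. Krt23 differed by -3.09 ± 0.66 (limma FDR = 0.0548, exact permutation p = 0.0044), with BZA nearest to Veh at -2.41 and CE+BZA farthest at -3.78. The 5 other cholangiocyte markers in the table had means of -1.14 to 0.49 in Veh and -1.44 to 2.23 in the ligand mice, with 4 higher and 1 lower.

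Aqp4, a water channel, was down-regulated almost equally by the 4 ligands. Its Veh values of 1.69, 1.42 and 2.22 lay above the ligand range of -1.59 to 0.16 with a median of -0.14. It fell by 2.14 ± 0.42, or 4.41-fold (limma FDR = 0.0429, exact permutation p = 0.0044), while the ligand groups ran from -2.45 in CE to -2.03 in CE+BZA (limma F test, FDR = 0.882). Pla2g4f, a cytosolic phospholipase A2 (chr2:120299957-120314165, minus strand), passed although its change was not common. Veh mice had 2.93, 2.81 and 1.41, E2 mice 1.26, 1.15 and 1.91, and the other 9 ligand mice -1.17 to 0.19. The floor of the gene held the 4 mice at -1.17. It fell by 2.57 ± 0.42 (limma FDR = 0.0170, exact permutation p = 0.00879). E2 differed by -0.94, CE by -3.03, BZA by -2.77 and CE+BZA by -3.55 (limma F test, FDR = 0.107), and those of the latter 2 groups are lower bounds in size because of the floor, as is the pooled decrease.

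**Figure D3:**
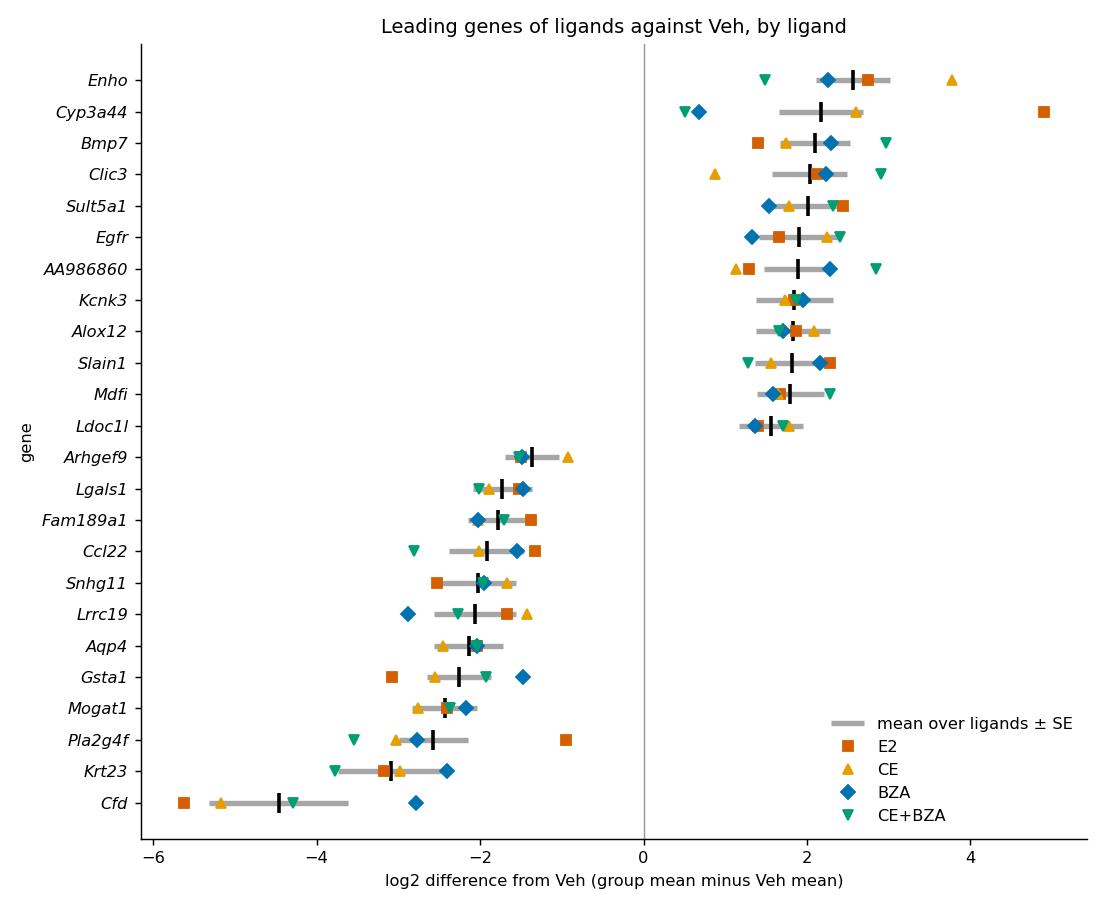
Log2 difference from Veh (horizontal axis) for the 12 leading genes in each direction (vertical axis), with a symbol for each ligand group and a bar for the mean over the ligands ± SE. The ligands coincide in Mogat1, Aqp4 and Kcnk3 and spread in Cyp3a44, from 0.51 in CE+BZA to 4.90 in E2, and in Pla2g4f, from -0.94 in E2 to -3.55 in CE+BZA.

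Immune and matrix genes moved in both directions. Ccl22, a chemokine for regulatory T cells, had Veh values of 1.21, 1.65 and 2.06 and ligand values of -2.11 to 0.96 with a median of -0.15. It differed by -1.92 ± 0.46 (limma FDR = 0.0906, exact permutation p = 0.0044). Lgals1, or galectin-1, a secreted lectin of stromal and immune cells, had Veh values of 1.65, 1.51 and 2.25 against -0.30 to 0.88 with a median of -0.03, and differed by -1.73 ± 0.37 (limma FDR = 0.0548). Mmp12, the macrophage elastase, differed by -2.55 ± 0.66 (limma FDR = 0.112) but overlapped, since the Veh mice ranged from 0.43 to 4.60. The table held 18 inflammation and NF-kappa B genes, of which 11 were higher and 7 lower (median 0.61). Of 19 matrix genes 9 were higher and 10 lower (median -0.08), against 1396 and 1149 of all 2545 genes. Postn, or periostin, differed by -1.22 and Vtn, or vitronectin, by 1.01, the latter without overlap. Few defining macrophage markers were in the table. The mean of its 5 members was -0.35 to 0.68 in Veh and -0.94 to 1.72 in the ligand mice. T and NK cell markers had all 5 members higher with ligands, and their mean did not overlap between Veh (-1.28 to -0.63) and the ligand mice (-0.51 to 0.84). Erythroid markers were higher in 10 of 11 members, with means of -0.90 to 0.11 in Veh and -0.93 to 1.95 in the ligand mice. Nkg7, a granule protein of cytotoxic cells, was the T and NK cell marker without overlap, at 0.98 (limma FDR = 0.214). Without it the mean of the other 4 was -1.40 to -0.59 in Veh and -0.72 to 0.83 in the ligand mice and overlapped.

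Markers of smooth muscle and mesothelium, the cell layer that covers the liver, were higher with ligands in all 7 members in the table. Their mean was -1.43 to -0.56 in Veh and -0.99 to 2.55 in the ligand mice, highest in BZA mouse 1. Without Upk3b these means were -1.34 to -0.48 and -1.13 to 2.71. Upk3b, a uroplakin of mesothelium, had Veh values of -1.99, -1.07 and -0.99 and ligand values of -0.82 to 2.31 with a median of 0.53. It differed by 1.87 (limma FDR = 0.114, exact permutation p = 0.0044). Slpi, a secreted protease inhibitor, and Igfbp6, which binds insulin-like growth factors, were common genes at 1.89 and 2.07. The part of mesothelial RNA in these values was not tested.

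**Figure D4:**
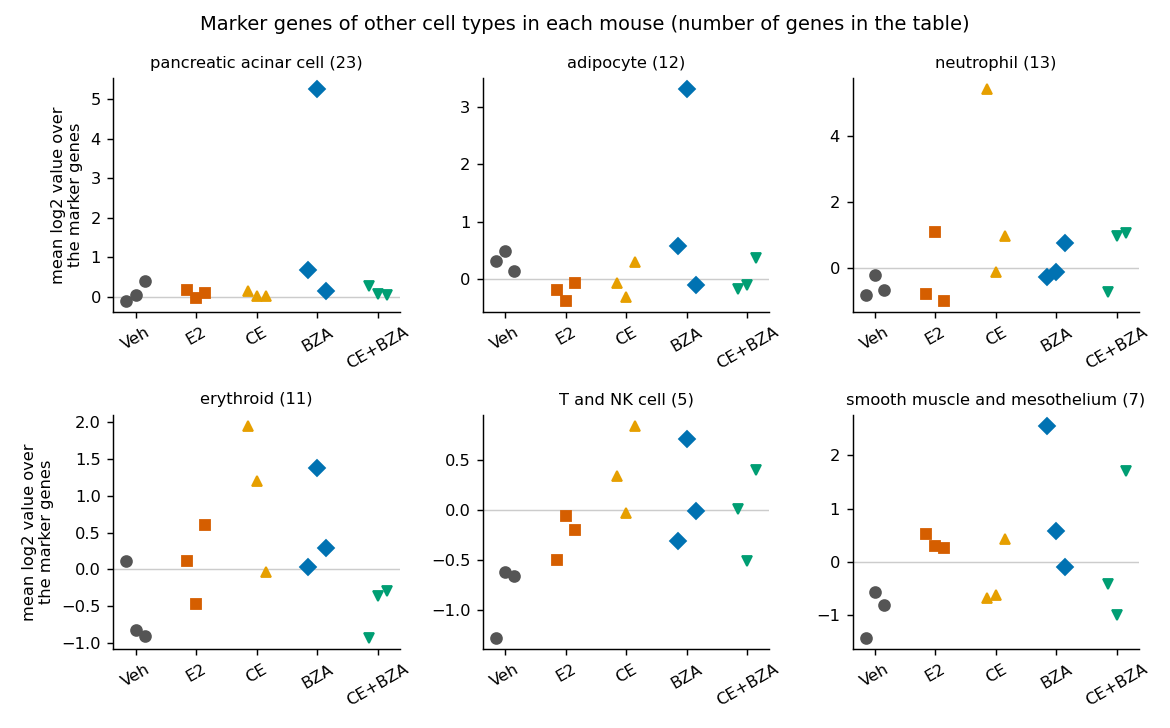
Mean log2 value over the marker genes of 6 other cell types (vertical axes) in each mouse of the 5 groups (horizontal axes), a point for each mouse. Acinar and adipocyte markers are high in BZA mouse 3 (5.25 and 3.31) and neutrophil markers in CE mouse 3 (5.40), and the 3 Veh mice are lowest for T and NK cell markers.

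The remaining common genes had other functions. Sult5a1, a sulfotransferase, had Veh values of -1.95, -1.68 and -2.26 and ligand values of -1.30 to 1.34 with a median of 0.04, and differed by 2.02 ± 0.45 (limma FDR = 0.0675). AA986860, a gene without a known role, differed by 1.89 (limma FDR = 0.0675), from 1.13 in CE to 2.84 in CE+BZA. Alox12, a 12-lipoxygenase, differed by 1.83, with group differences of only 1.66 to 2.09. Ldoc1l differed by 1.56. Mdfi, a MyoD family inhibitor, differed by 1.79, a lower bound in size because 2 Veh mice were at its lowest value. Slc13a5, the citrate transporter, differed by 1.78 and Slc37a1, a glucose-6-phosphate transporter, by 1.98. In both, CE mouse 3 was the highest, at 2.62 and 3.12. Among the common genes that were lower, Slc28a1, a nucleoside transporter, had Veh values of 1.67, 1.61 and 1.39 and ligand values of -1.98 to 0.51 with a median of -0.25, and differed by -1.92 (limma FDR = 0.102). Tfrc, the transferrin receptor, differed by -1.38 and Serpinb1a, an inhibitor of leukocyte elastase, by -1.71. Fam189a1 differed by -1.78 (limma FDR = 0.0531), a lower bound in size because 9 ligand mice were at its lowest value. Snhg11, Lrrc19, Cyp2c55, Ifnk, Bhlhb9, Gm11610, Cabp4, 4930513O06Rik and Gm11960 completed the list, with differences between -1.34 and -2.06.

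Glul, Sds, Got1 and Cbs, enzymes of amino acid metabolism, had all 12 ligand mice above all Veh mice without reaching a difference of 1 in every ligand group. They were chosen after their values were seen and belong to no list. Glul, the glutamine synthetase, differed by 1.03, Sds, the serine dehydratase, by 1.10, Got1, an aspartate aminotransferase, by 1.06 and Cbs, the cystathionine beta-synthase, by 0.91. Their limma FDR values were 0.197, 0.194, 0.194 and 0.209.

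Other lists were small or divided. Their splits stand beside 1396 higher and 1149 lower genes among all 2545. Immediate early genes had 12 of 13 members higher with a median of 0.69, led by Junb, a subunit of AP-1, at 1.07 (limma FDR = 0.194). Circadian genes had 9 of 11 higher (median 0.66), and stress and unfolded protein genes 10 of 11 (median 0.49), with Sdf2l1, a protein of the endoplasmic reticulum, at 1.24. The coagulation and fibrinolysis list had 5 of 7 members higher (median 0.92), with F11, coagulation factor XI, at 0.92 and F13a1 at 0.96. Mmp9 at 0.87, Dusp14 at 1.12 and Dct at 1.06 were the others, and Dusp14 and Dct are not clotting factors. Anxa2 and Plaur were lower, at -0.83 and -0.59. Proliferation genes were lower in 9 of 15 (median -0.41). Without BZA mouse 3 and CE mouse 3 the medians were 0.60 for coagulation and -0.72 for proliferation. In the same fit they were 0.67 for immediate early, 0.89 for circadian and 0.54 for stress genes, against 0.15 over all genes. Of 3 bile acid genes, Cyp7a1, the rate-limiting enzyme of bile acid synthesis, differed by -0.42 (limma FDR = 0.467). None of the members of these lists passed the adjusted test, against 0.236% of the table.

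Whether the ligands differed from each other was tested by contrasts among their groups, in which the Veh mice enter only through the estimate of the spread. By the F test among the 4 ligand groups, 8 genes passed at an FDR under 0.05 (0.314% of the table), and 351 had an unadjusted p under 0.05 (13.8%). Of the 31 common genes 4 had such a p, namely Gsta1, Enho, AA986860 and Gm11610. Between the bazedoxifene-containing groups and the estrogen-only groups, 6 genes were higher (0.236%) and 11 lower (0.432%) by limma at the same thresholds as above. None of these 17 was among the 6 genes that passed against Veh, but sets this small would rarely share a gene if unrelated. Of the 6, 3 had an unadjusted p under 0.05 in the F test, namely Gsta1, Enho and Pla2g4f. Without BZA mouse 3 and CE mouse 3 the counts of 8 and 17 became 1 and 6, without BZA mouse 3 alone 1 and 7, and without BZA mouse 4 they became 17 and 37. Leaving out other single mice gave 2 to 9 and 10 to 21. A mean over ligands can hide opposite changes. A1bg, a secreted protein of the immunoglobulin superfamily, had a mean difference of -0.14 from Veh over the 12 ligand mice. E2 lay 3.79 above Veh and CE 0.04, whereas BZA differed by -2.24 and CE+BZA by -2.13 (limma F test, FDR = 9.31e-05). Tmem200b, a membrane protein, had a mean of 1.56 that came from 2.70 in BZA and 3.02 in CE+BZA, with 0.09 in E2 and 0.42 in CE.

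**Figure D5:**
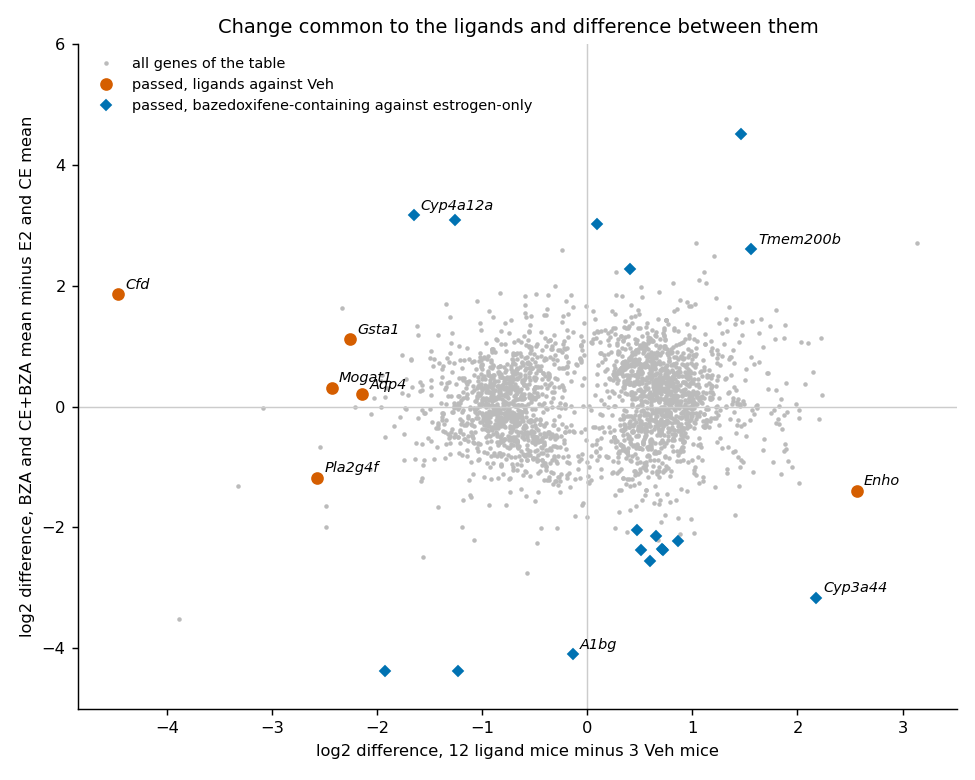
Difference of the 12 ligand mice from Veh (horizontal axis) and difference of the BZA and CE+BZA mean from the E2 and CE mean (vertical axis) for the 2545 genes, both on the log2 scale, with the 6 genes that passed against Veh as circles and the 17 that passed between ligands as diamonds. The sets do not share a gene, but unrelated sets this small would rarely share one. The gap around 0 on the horizontal axis lies where a table chosen for differences from Veh holds few genes.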

How the data were processed

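Total RNA of 15 livers was sequenced as poly-A libraries with 1 library per mouse. Per the paper's methods, the authors mapped trimmed reads with TopHat, counted them per gene in StrandNGS and normalized by DESeq. The submitters' processing notes name TopHat2 0.5, CASAVA 1.8.2 and the builds mm10 and hg19. The log2 values that the authors deposited are relative to the median of each gene, which was 0 in all 2545 genes, with low values raised to a floor. Depth per mouse is unknown. The mean value of a mouse was -0.194 to 0.34, no mice were identical (0 pairs), and 0 columns were unmatched. In 6 cases a gene name was repeated.

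The 5 groups were modelled on the log2 values as deposited with limma 3.58.1 in R 4.3.3, with the mean of the 4 ligand groups minus Veh as the contrast, a moderated F test among ligands, and bazedoxifene-containing minus estrogen-only groups. The Benjamini-Hochberg adjustment covered all 2545 genes. Exact permutation tests were two-sided and unadjusted, with scipy 1.17.1 in Python 3.11.15. Plots were made with matplotlib 3.10.9. Tested on simulated data for this contrast, the fit recovered 1 of 200 genes shifted by 1 on the log2 scale, 138 shifted by 2 (with 5 other calls) and 182 shifted by 3 (with 11 other calls), and called 0 with no shift. How far these counts hold for genes selected on differences from Veh, or for genes with a floor, was not tested. P-values measure only the spread between these mice.

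Gene lists were written from general knowledge. Members and lists were chosen with earlier results of these data known. No set test was run. Genes were named by rule as the 12 leading genes per direction, the 4 members of each list with the smallest p, the 5 leading genes of the F test and the 3 per direction of the contrast between ligands, with A1bg, Cfd and Pparg. The other common genes, the other list members given with values, the fat markers and the genes of amino acid metabolism were named after their values were seen. Some selected items are not reported here. Positions are from GENCODE M21 (GRCm38) and promoter windows from RefSeq, found for 1413 of 2530 names. Alternatives were other scalings, filters on genes at the lowest value, other variance models, a replicate block, 2 groups, omission of each mouse or ligand group, and other thresholds. Fits without BZA mouse 3 and CE mouse 3, and the recounts of genes without overlap, were added after seeing the data.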

Additional observations from a re-analysis of the deposited data

Results flagged for a closer look

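Differences among the ligands were significant by the limma F test in Cyp3a44 (FDR = 0.0118), A1bg (FDR = 9.31e-05), Serpina12 (FDR = 0.0140), Gm9847 (FDR = 0.0324), Heatr8 (FDR = 0.0379), Tmem200b (FDR = 0.0379) and Gm15622 (FDR = 0.0379), so that the mean over ligands does not describe them. Serpina12, or vaspin, was 2.45 above Veh in E2, 1.35 in CE and 0.12 in CE+BZA, while BZA differed by -1.06. In Gm9847, E2 and CE were above Veh by 1.56 and 2.19, and BZA and CE+BZA differed by -0.27 and -1.08. Gm15622 went the other way, with E2 and CE at -3.00 and -2.61, BZA at -0.51 and CE+BZA at 1.09. Heatr8 was lower in CE and BZA alone (-2.52 and -2.01) than in E2 and CE+BZA (-0.14 and 0.10).

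Cyp4a12a and Ccdc37 differed between the bazedoxifene-containing and the estrogen-only groups (limma FDR = 0.00696 in both). In Cyp4a12a, a male-biased fatty acid hydroxylase, the difference was 3.17, and 4 ligand mice were at its lowest value. In Ccdc37 the differences from Veh were -0.93 in E2 and -0.55 in CE against 1.73 in BZA and 1.35 in CE+BZA.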

How the results depend on the processing

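The counts are given in the order higher than Veh, lower than Veh, common to all ligands among those, differing among ligands, and differing between bazedoxifene-containing and estrogen-only groups, and were 1, 5, 4, 8 and 17 as reported. They were 2, 9, 9, 20 and 31 with quantile normalization, 2, 8, 8, 14 and 21 with centring of each mouse, 11, 15, 17, 15 and 24 without genes with 2 or more mice at the lowest value, and 2, 5, 5, 15 and 21 without genes with over 50% of mice there, fits that test fewer genes in the last 2 cases. Without shrinkage they were 1, 9, 6, 2 and 9, and with a mean-variance trend 2, 5, 5, 15 and 20. Robust shrinkage left all 5 as reported, and the lack of a fold threshold the 4 to which it applies. At an unadjusted p they were 168, 199, 31, 351 and 303, and at an FDR under 0.1 they were 7, 10, 13, 21 and 29. The first 3 counts were 0, 1 and 1 with 2 groups, 0, 2 and 2 without E2, 0, 0 and 0 without CE, 6, 14 and 15 without BZA, and 1, 2 and 3 without CE+BZA. The cause was not tested. At an unadjusted p the limma fits with 0 calls still had 172 higher and 192 lower without CE, and 99 and 152 with the replicate block, where 212 differed among ligands. With 2 groups 159 were higher and without E2 203. Without BZA mouse 3 and CE mouse 3, chosen after seeing the data, the counts were 1, 7, 5, 1 and 6, and genes with all ligand mice higher or lower were 43 and 90 (32 and 59 as reported). With quantile normalization these were 21 and 43, and the split at an unadjusted p was 130 higher and 221 lower (168 and 199 as deposited). The median of all differences was 0.293, 0.231 with quantile normalization and 0.278 with centring.

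With each mouse left out in turn the counts ranged over 0 to 5, 0 to 11, 0 to 13, 1 to 17 and 7 to 37. The highest first 3 were without BZA mouse 1, the lowest F test count without BZA mouse 3 and the highest without BZA mouse 4. An arm left with 2 mice was assumed to vary like the others. Over all of these alternatives Mogat1 differed by -2.75 to -2.05, Enho by 2.16 to 2.92, Gsta1 by -2.56 to -1.96, Aqp4 by -2.32 to -1.88, Pla2g4f by -3.06 to -2.3 and Cfd by -5.02 to -4.12. Of the values of single genes under an alternative, 3360 kept direction and side of the threshold, 53 passed newly and 45 no longer passed. Another 9 changed sign or became 0, and all were small. With the replicate block they were Cox8b -0.21, Ucp1 -0.183 and Ctrc -0.0149. Without Veh mouse 1 they were Ly6c2 -0.169, A1bg 0.243 and Ccdc37 -0.114. Ly6c2 was -0.0341 and Ucp1 0 without BZA mouse 3 and CE mouse 3, and Ucp1 was 0 without BZA mouse 3. The values of 0 are not reversals, because the 14 mice other than BZA mouse 3 were all at the lowest value of Ucp1. Leaving out each mouse gave Ucp1 0 to 0.536, Ly6c2 -0.169 to 0.536, A1bg -0.524 to 0.243 and Ccdc37 -0.114 to 0.938.

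Mice of different groups with the same replicate number correlated at -0.0486 to 0.098 (13 pairs), against -0.176 to 0.233 for 77 other pairs. The first range lies within the second. Whether mice with the same number shared handling or a batch was not tested. With the replicate block the counts were 0, 0, 0, 0 and 2. Depth could not be assessed, and levels at the floor limit the size of differences in 41.1% of the genes.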
